A study of Mus musculus with 36 samples.

Results

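The genes described here encode 28 parts of the peroxisome: 12 biogenesis factors (peroxins, the Pex genes), which build the organelle, and 16 enzymes and transporters that handle its lipids. They were chosen by name, through the gene symbol of the array platform, and each gene was represented by its brightest probe. All 28 had a probe among the 16590 genes of the array, and 25 of them were among the 8537 genes bright enough to test. RNA came from whole liver of 36 male C57BL/6J mice, killed at 9 weeks of age after a fast of some hours. Dams ate either a high-fat, low-carbohydrate diet (HF) or a low-fat, high-carbohydrate diet (LF), both with coconut oil as main fat, through mating, pregnancy and lactation. From weaning their male pups ate either diet, so that a group is named by the dam's diet and then the pup's: HF_HF (n = 10 mice), HF_LF (n = 9), LF_HF (n = 8) and LF_LF (n = 9). The pups came from 12 birth cages, each with 1 maternal diet, so that mice of 1 cage share mothers and are not fully independent. Fat and carbohydrate changed together, and their effects cannot be told apart.

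Peroxisomes shorten very long-chain, branched and dicarboxylic fatty acids that mitochondria handle poorly, and they finish the side chain of bile acids. Hydrogen peroxide formed in the first oxidation step is broken down by catalase. Peroxins carry proteins into the organelle, insert its membrane proteins and divide it. In rodent liver the nuclear receptor PPARalpha, which senses fatty acids, is known to raise many of the lipid enzymes and the membrane-shaping peroxin Pex11a.

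Arrays were alike, with a median correlation to the other arrays between 0.979 and 0.991, and the lowest of these belonged to HF_HF mouse 1, from birth cage 10. Summed intensity of the hepatocyte markers lay between 87350 and 101110 in the 36 mice and overlapped in all 4 groups. In bulk liver, fewer cells of a type and less RNA per cell cannot be told apart. A probe's intensity depends on its own binding, so levels are given per gene and are not ranked between genes.

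The probes of 3 members stayed below the filter, a median intensity of 71.5 over the 36 arrays, and these members were not tested. They were Pex10, a subunit of the ubiquitin ligase that recycles import receptors (58.8 to 77.0 over all mice), Phyh, which starts the alpha-oxidation of phytanic acid (58.9 to 71.6), and Crot, which passes medium-chain products to carnitine (53.5 to 72.0). A dim probe does not show that a transcript is missing. Pex13, Amacr and Abcd2 lay only just above the filter, with mean intensities of 85.3, 75.7 and 75.6, and such probes understate a change in RNA because the deposited intensities still hold background.

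Among the peroxins, 3 bring membrane proteins into the organelle. Pex3, the membrane anchor of this route, ranged from 300.1 to 393.6 over the 36 mice, Pex16 from 472.5 to 776.4, and Pex19, the soluble carrier, from 1236.4 to 1804.2. The import receptors Pex5 and Pex7, which read the 2 kinds of peroxisomal targeting signal, ranged from 489.7 to 758.5 and from 365.2 to 607.8. Of the docking proteins, Pex14 ranged from 457.3 to 717.5 and Pex13 from 72.4 to 95.9. Pex2, a partner of Pex10 in the ligase, ranged from 910.7 to 1354.9. The receptor export machinery gave 1401.6 to 2263.5 for the ATPase Pex6 and 172.5 to 384.8 for its membrane anchor Pex26. Pex11a, which elongates the membrane before division, had the widest range of the peroxins, 1318.5 to 3254.2.

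Among the lipid proteins, the transporter Abcd3 ranged from 4757.2 to 7900.1 and the related Abcd2 from 59.9 to 95.7. The branched-chain oxidases Acox2 and Acox3 ranged from 1446.3 to 2683.1 and from 204.4 to 379.8. Of the bifunctional enzymes that follow, Ehhadh ranged from 170.5 to 660.4 and Hsd17b4 from 4974.6 to 7059.5. The thiolases that end each cycle gave 4942.5 to 8316.1 for Acaa1a, 5159.6 to 18834.2 for Acaa1b and 13552.8 to 19803.2 for Scp2, whose gene also encodes a sterol carrier. The auxiliary enzymes for unsaturated chains gave 172.7 to 788.9 for Decr2 and 3909.5 to 6518.6 for Ech1. Hacl1, the lyase of alpha-oxidation, ranged from 161.8 to 650.2, Amacr, the racemase for branched chains, from 68.1 to 86.1, and catalase (Cat) from 2067.3 to 4021.1.

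The spread between mice of 1 group differed among members. The pooled within-group SD on the log2 scale had a median of 0.15 over the 25 tested members, 0.15 over the 11 peroxins and 0.16 over the 14 lipid genes. The lipid genes reached further, up to 0.46 for Ehhadh, followed by Acaa1b and Decr2 at 0.35 each and Hacl1 at 0.33. Pex11a led the peroxins with 0.26. A diet difference of a given size was therefore harder to resolve for these genes than for Scp2 (0.12) or Acaa1a (0.13).

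The post-weaning diet was compared separately in the pups of HF dams and of LF dams, and the 2 comparisons share no mouse and no birth cage. Acox3 passed as higher on the HF diet in both comparisons, by its 1 kept probe. Neither call held with 1 mean per birth cage and group or with birth cage as a fixed block. Abcd2 also passed in both comparisons, as lower on the HF diet, but its dim probe entered the test only through the LF-fed groups. Acaa1a rose and Scp2 fell in pups of HF dams, and Hacl1 fell in pups of LF dams. Of 11 tested peroxins 0 passed the threshold in either comparison, beside 11.8% of all genes in pups of HF dams and 3.41% in pups of LF dams.

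In HF_HF against HF_LF, 4 of the 25 tested members passed a false discovery rate of 5% (limma), 2 up and 2 down. This was 16% of the members, close to the 11.8% of all 8537 genes that passed (5.4% up and 6.41% down). In LF_HF against LF_LF, 3 members passed, 1 up and 2 down, or 12% beside 3.41% of all genes (1.99% up and 1.42% down). Abcd2 is counted in both, although its probe passed the filter only through the LF-fed groups, which favours a fall on the HF diet. All passing members were lipid genes, 4 of 14 in pups of HF dams and 3 of 14 in pups of LF dams, Abcd2 among them in both. Of 11 tested peroxins 0 passed in each comparison, beside 11.8% and 3.41% of all genes. With 11 genes, 0 is close to these shares, and whether the 2 classes differed was not tested. The median log2 difference of the 25 members was 0.00 in HF_HF against HF_LF and -0.03 in LF_HF against LF_LF, beside -0.01 and 0.00 for all genes. Of the 25, 8 were above 0 and 12 below 0 in both comparisons, and 5 differed in sign. The passing members thus went both ways, with no common direction for the organelle's genes.

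Acox3, the oxidase for pristanoyl-CoA and other branched chains, had a lowest, median and highest intensity of 276.0, 317.8 and 347.9 in HF_HF mice, against 204.4, 248.6 and 288.8 in HF_LF mice. It had 266.6, 331.9 and 379.8 in LF_HF mice, against 219.1, 253.6 and 306.2 in LF_LF mice. The groups overlapped only at their edges in both comparisons. The log2 difference was 0.32 ± 0.07 (SE, adjusted p = 0.00357) in pups of HF dams and 0.35 ± 0.08 (adjusted p = 0.012) in pups of LF dams, which is 1.25-fold and 1.27-fold. With 1 mean per birth cage and group the call was lost in both, at 0.30 (adjusted p = 0.0501) and 0.29 (adjusted p = 0.21), and likewise with birth cage as a fixed block, at 0.30 (adjusted p = 0.0809) and 0.32 (adjusted p = 0.243). In pups of LF dams it was also lost without cage 8 (adjusted p = 0.0967), 9 (0.139) or 11 (0.0812). Of the gene's 3 probes only 1 was bright enough to test, and the others had mean intensities of 67.8 and 60.0.

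Acaa1a, a thiolase that cleaves straight-chain 3-ketoacyl-CoA, had 6029.5, 6554.8 and 8316.1 as lowest, median and highest in HF_HF mice, against 5014.2, 5893.5 and 6179.2 in HF_LF mice. Most HF_HF mice lay above the highest HF_LF mouse. The log2 difference was 0.24 ± 0.06 (adjusted p = 0.0161), or 1.18-fold. In LF_HF mice the values were 5370.2, 6506.0 and 7098.3, against 4942.5, 5356.9 and 6400.7 in LF_LF mice, a difference of 0.20 ± 0.06 that did not pass (adjusted p = 0.0858). With birth cage as a fixed block the difference in pups of HF dams was 0.15 (adjusted p = 0.275), and with 1 mean per cage and group 0.21 (adjusted p = 0.172). That call was also lost without cage 1 (adjusted p = 0.0617), 21 (0.0771) or 23 (0.0734), and in pups of LF dams the gene passed without LF_HF mouse 3 (0.0319) or LF_LF mouse 8 (0.0421). Its neighbour and close paralogue Acaa1b had log2 differences of -0.10 ± 0.17 in HF_HF against HF_LF and 0.00 ± 0.10 in LF_HF against LF_LF, with 95% intervals from -0.46 to 0.25 and from -0.21 to 0.21. The paralogues are nearly identical in sequence, and how far each probe binds the other's transcript was not tested.

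The promoters of Acox3 and of the Acaa1 pair are printed because Acox3 and Acaa1a were the members that rose, and because Acaa1b lies 184 kb from Acaa1a on the same chromosome. Sequences are RefSeq's, build GRCm38.p6, from 250 bases before to 50 after the gene's start, 5′ to 3′ on the gene's strand. Capitals mark the CCAAT box (CCAAT or ATTGG) and the GC box (GGGCGG or CCGCCC), and matches that overlap were each counted.
Acox3 (chr5:35582784-35583083, plus strand): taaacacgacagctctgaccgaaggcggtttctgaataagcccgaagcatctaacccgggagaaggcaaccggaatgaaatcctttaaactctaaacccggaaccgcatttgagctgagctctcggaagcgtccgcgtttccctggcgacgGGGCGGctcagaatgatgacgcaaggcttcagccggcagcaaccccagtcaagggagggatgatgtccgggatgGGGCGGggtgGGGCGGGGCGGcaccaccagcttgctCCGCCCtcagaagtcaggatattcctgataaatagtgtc
Acaa1a (chr9:119341044-119341343, plus strand): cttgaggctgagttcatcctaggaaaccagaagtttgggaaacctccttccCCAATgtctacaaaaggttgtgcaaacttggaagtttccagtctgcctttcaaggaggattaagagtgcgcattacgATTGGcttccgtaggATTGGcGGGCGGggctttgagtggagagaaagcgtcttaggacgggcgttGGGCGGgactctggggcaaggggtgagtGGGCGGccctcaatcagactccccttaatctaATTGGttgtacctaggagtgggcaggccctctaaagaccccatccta
Acaa1b (chr9:119157044-119157343, minus strand): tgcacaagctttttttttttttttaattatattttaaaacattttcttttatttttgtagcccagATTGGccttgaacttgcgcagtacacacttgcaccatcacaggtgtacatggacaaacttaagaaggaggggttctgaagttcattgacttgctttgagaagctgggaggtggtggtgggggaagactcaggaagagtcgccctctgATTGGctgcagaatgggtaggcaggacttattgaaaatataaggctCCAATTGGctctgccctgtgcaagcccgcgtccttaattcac
Acox3 held 5 GC boxes and 0 CCAAT boxes, Acaa1a 3 and 4, and Acaa1b 0 and 4. Over all 32851 promoter windows, 35.7% held a GC box and 37.4% a CCAAT box. Windows were given for 23 of the 28 members, in 28 windows, of which 18 (64.3%) held a GC box and 11 (39.3%) a CCAAT box. The PPAR response element, searched on both strands as AGGNCANAGGNCA, had no match in the members' windows and a match in 0.381% of all windows. The nuclear receptor motif AGGTCA, on either strand, was found in the windows of Cat, Phyh and Scp2 and in 16.3% of all windows. These are matches of letters near the start site and show no binding.

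Abcd2, a transporter of very long-chain acyl-CoA, was dim. Its lowest, median and highest intensity were 59.9, 69.5 and 72.7 in HF_HF mice, against 75.6, 83.3 and 95.7 in HF_LF mice, so that every HF_HF mouse lay below every HF_LF mouse. In LF_HF mice they were 64.3, 70.0 and 74.3, against 73.9, 80.8 and 86.9 in LF_LF mice, with a narrow overlap. How many of all genes separated fully in HF_HF against HF_LF was not computed. The log2 differences of Abcd2 were -0.28 ± 0.05 (adjusted p = 0.000552) and -0.22 ± 0.04 (adjusted p = 0.00451). The probe passed the filter through the LF-fed pups: 2 of 10 HF_HF and 3 of 8 LF_HF mice reached 71.5, against 9 of 9 mice in each LF-fed group. Its call therefore rests on intensities around the filter. After subtraction of each array's 5th percentile the differences were -0.67 and -0.59, so the size of the difference depends on the background removed. In pups of LF dams the call was lost without cage 9 (adjusted p = 0.0785), with birth cage as a fixed block (-0.15, adjusted p = 0.307) and with 1 mean per cage and group (-0.22, adjusted p = 0.11).

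Scp2 had 13552.8, 15503.3 and 17994.8 as lowest, median and highest in HF_HF mice, against 16304.2, 18418.7 and 19523.7 in HF_LF mice. The groups overlapped, and the log2 difference was -0.20 ± 0.06 (adjusted p = 0.0251). The other bright Scp2 probes gave -0.10 ± 0.05 (adjusted p = 0.272) and -0.04 ± 0.06 (adjusted p = 0.788), and the mean of the gene's kept probes gave -0.11 (adjusted p = 0.167), so the call belongs to 1 probe. In LF_HF against LF_LF the brightest probe gave -0.08 ± 0.06 (adjusted p = 0.523). The call was also lost without cage 10 (adjusted p = 0.112), 20 (0.061), 21 (0.121) or 23 (0.055), without HF_LF mouse 7 (0.0507), and with 1 mean per cage and group (-0.25, adjusted p = 0.109).

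Hacl1 splits the 2-hydroxyacyl-CoA formed by Phyh, the step after which phytanic acid can enter beta-oxidation. Its lowest, median and highest intensity were 161.8, 266.8 and 388.9 in LF_HF mice, against 286.2, 438.0 and 550.0 in LF_LF mice. The groups overlapped, with LF_HF mice at the low end. The log2 difference was -0.70 ± 0.15 (adjusted p = 0.011), or 0.616-fold, the largest of any member in the 4 pairwise comparisons. In HF_HF mice the values were 307.7, 336.6 and 510.3, against 311.7, 393.0 and 650.2 in HF_LF mice, a difference of -0.11 ± 0.12 (adjusted p = 0.652). The test of whether these 2 differences differ gave 0.59 ± 0.20 (p = 0.00623 in limma, adjusted p = 0.637), so a dependence on the dam's diet was not established. The call in pups of LF dams was lost without cage 8 (adjusted p = 0.111), 9 (0.092) or 11 (0.0606), and with 1 mean per cage and group (-0.56, adjusted p = 0.204). It rests on 1 of the gene's 2 probes, since the other had a mean intensity of 57.1 and was not tested.

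Hacl1 is the member with the largest difference, so its promoter is shown with the same motifs in capitals.
Hacl1 (chr14:31640916-31641215, minus strand): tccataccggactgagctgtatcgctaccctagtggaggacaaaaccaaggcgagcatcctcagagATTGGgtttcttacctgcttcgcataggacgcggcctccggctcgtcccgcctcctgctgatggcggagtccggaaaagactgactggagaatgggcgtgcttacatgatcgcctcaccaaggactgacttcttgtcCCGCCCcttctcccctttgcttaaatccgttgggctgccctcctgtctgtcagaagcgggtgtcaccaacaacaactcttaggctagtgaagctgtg
The window held 1 CCAAT box and 1 GC box, each on the reverse strand.

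**Figure D1:**
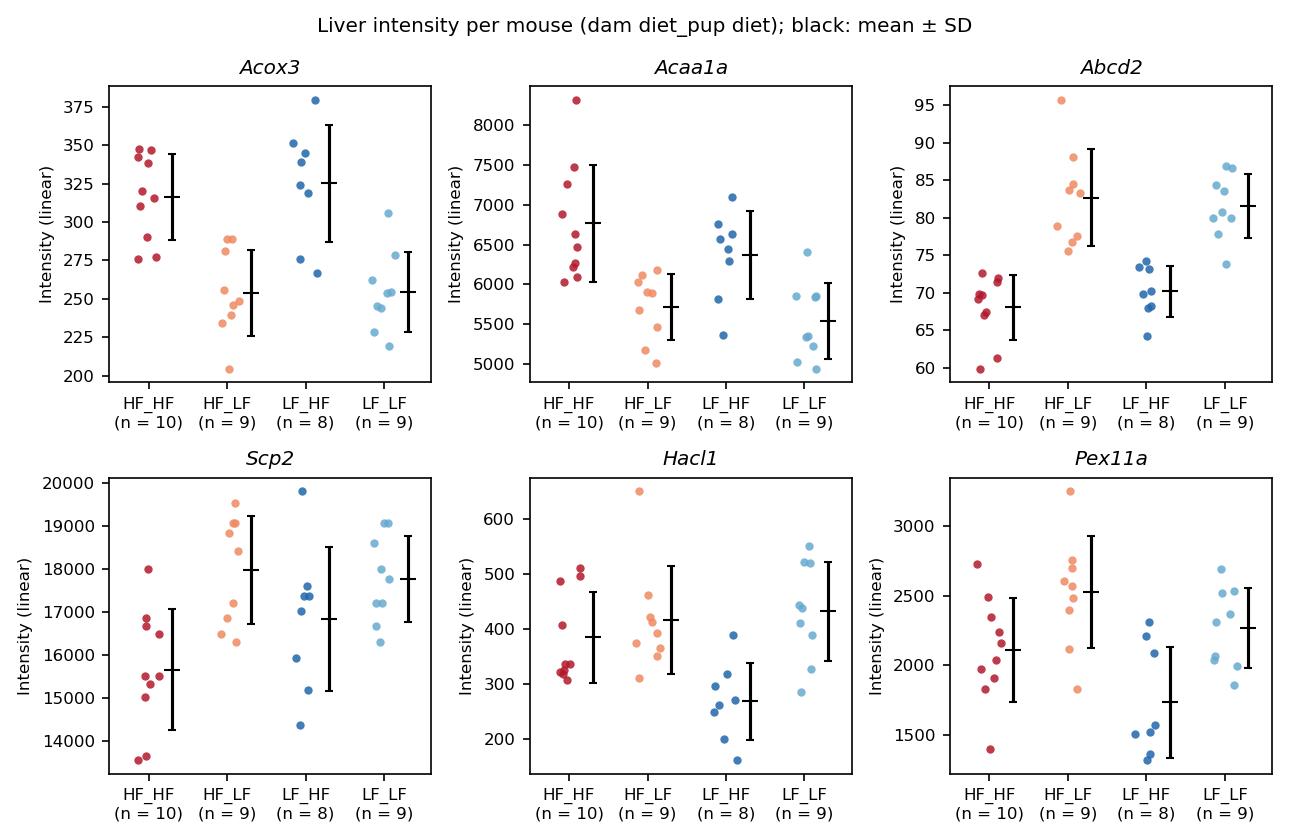
Intensity on a linear scale for 6 members, 1 point per mouse, in the 4 groups named by dam diet and then pup diet, with the group mean and SD in black (n = 10, 9, 8 and 9 mice from left to right; axes do not start at 0). HF-fed pups sit higher for Acox3 with either dam diet, most HF-fed mice lie below the filter of 71.5 for Abcd2, and LF_HF mice sit lowest for Hacl1, with a mean of 268.6.

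Pex11a came nearest to the threshold among the peroxins. It had 1318.5, 1544.1 and 2308.9 as lowest, median and highest in LF_HF mice, against 1861.3, 2312.5 and 2696.8 in LF_LF mice, and the groups overlapped. The log2 difference was -0.41 ± 0.11 (adjusted p = 0.0524). In HF_HF mice it had 1395.5, 2100.1 and 2731.4, against 1828.3, 2573.8 and 3254.2 in HF_LF mice, a difference of -0.26 ± 0.11 (adjusted p = 0.12). All 3 probes of the gene gave differences below 0 in both comparisons, from -0.41 to -0.34 in pups of LF dams and from -0.26 to -0.11 in pups of HF dams. In LF_HF against LF_LF the gene did pass in the fit of all 4 groups (adjusted p = 0.0437), under the stricter filter (0.0402), and without LF_HF mouse 1 (0.0166), 2 (0.0343) or 3 (0.0237), LF_LF mouse 6 (0.0374) or cage 4 (0.0193). In HF_HF against HF_LF it passed without HF_LF mouse 3 (0.0452).

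Pex26 had log2 differences above 0, 0.22 ± 0.09 (adjusted p = 0.136) in HF_HF against HF_LF and 0.30 ± 0.09 (adjusted p = 0.0665) in LF_HF against LF_LF. Its mean intensity was 277.5 in HF_HF mice, against 239.1 in HF_LF mice, and 298.2 in LF_HF mice, against 241.8 in LF_LF mice. In pups of LF dams it passed under the stricter filter (adjusted p = 0.0483) and without LF_HF mouse 3 (0.0234), LF_LF mouse 6 (0.0237) or cage 4 (0.0344). Pex3 was at -0.14 ± 0.05 (adjusted p = 0.08) and -0.05 ± 0.06 (adjusted p = 0.764), the first of which passed without HF_LF mouse 4 (0.0316) or cage 1 (0.0182). The gene's other kept probe gave -0.02 ± 0.07 (adjusted p = 0.91) and -0.06 ± 0.06 (adjusted p = 0.71). Pex14 was at -0.15 ± 0.08 (adjusted p = 0.243) and -0.12 ± 0.06 (adjusted p = 0.356). The remaining peroxins, the import receptors Pex5 and Pex7 among them, lay between -0.10 and 0.10 in both comparisons by their brightest probes. Another kept probe of Pex5 gave -0.125 (adjusted p = 0.196) in HF_HF against HF_LF. In LF_HF against LF_LF the second kept probes of Pex7 and Pex19 gave -0.13 (adjusted p = 0.395) and -0.19 (adjusted p = 0.279). The median over the 11 tested peroxins was -0.05 in each comparison.

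Among the lipid genes that did not pass, catalase had log2 differences of 0.23 ± 0.10 (adjusted p = 0.16) in HF_HF against HF_LF and 0.08 ± 0.10 (adjusted p = 0.739) in LF_HF against LF_LF. Acox2, which acts on bile acid intermediates, had 0.10 ± 0.06 and 0.15 ± 0.09 (adjusted p = 0.301 and 0.435). Ehhadh had -0.17 ± 0.21 and -0.02 ± 0.17, with 95% intervals from -0.59 to 0.26 and from -0.36 to 0.32, so that differences of either sign within these bounds could not be resolved. Narrower intervals were found for Hsd17b4, from -0.07 to 0.20 and from -0.11 to 0.14, and for Abcd3, from -0.14 to 0.18 and from -0.23 to 0.16. A p that misses the threshold does not show that the groups were alike.

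**Figure D2:**
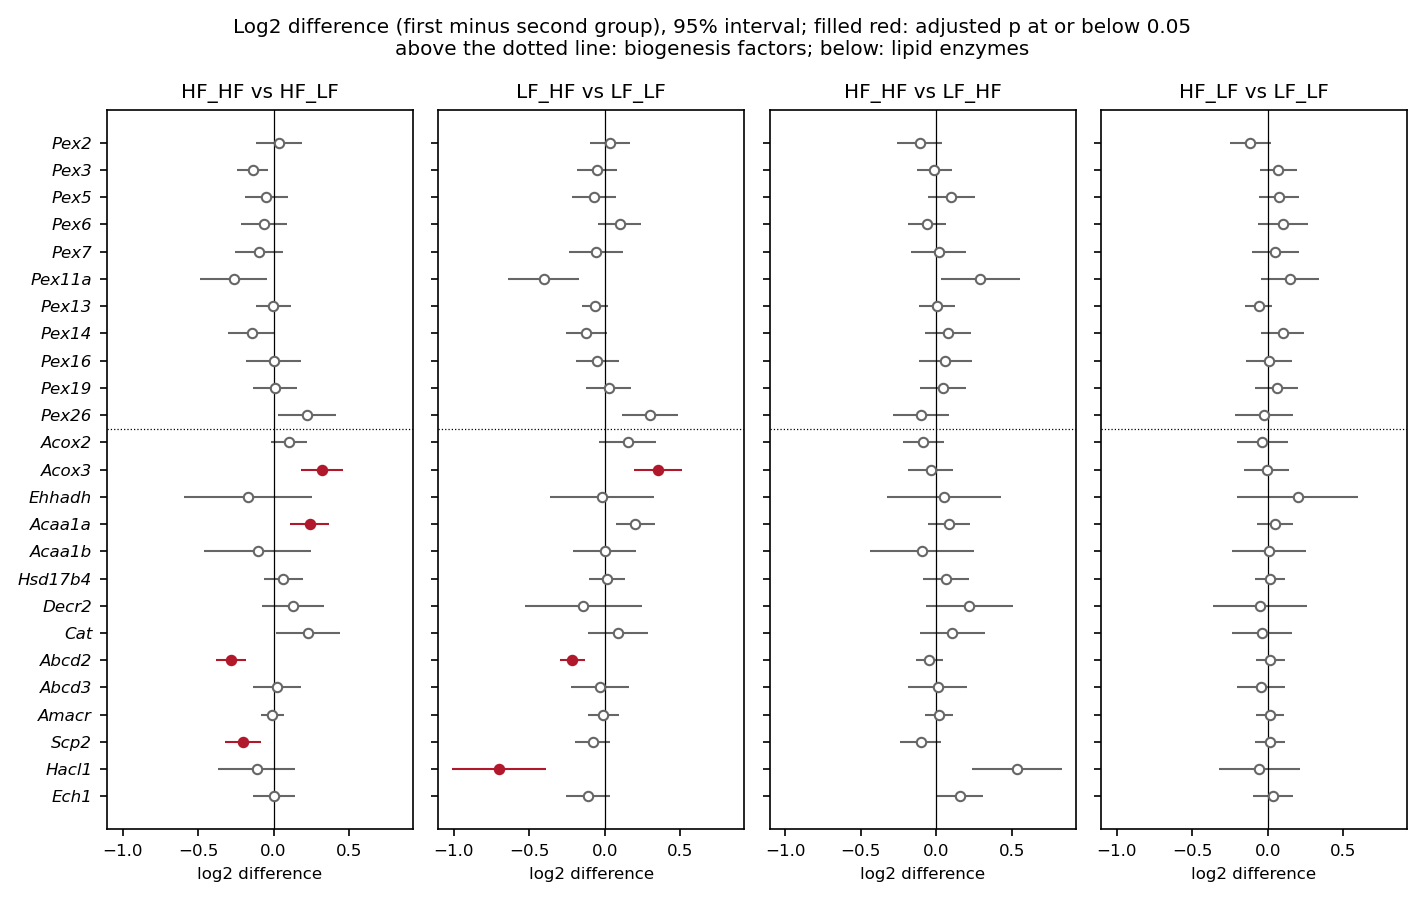
Log2 difference with its 95% interval for the 25 tested members in the 4 pairwise comparisons, first group minus second, peroxins above the dotted line and lipid genes below. Filled red points have an adjusted p at or below 0.05; these are 4 lipid genes in HF_HF against HF_LF, 3 in LF_HF against LF_LF and 0 in either maternal comparison.

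Pups of 5 birth cages were split between both diets, which allows the post-weaning difference to be taken within a cage. Acox3 was higher in the HF-fed pups of all 5 cages, by 0.02 to 0.46 on the log2 scale, and Acaa1a likewise, by 0.07 to 0.19. Pex3 was lower in the HF-fed pups of all 5, with differences from -0.25 to -0.05. Abcd2 was so too, from -0.44 to -0.09, but its probe passed the filter only through LF-fed mice. That choice favours a lower value in HF-fed pups, so its sign here is no separate support. Acox2 and Cat were higher in all 5 cages, from 0.07 to 0.24 and from 0.01 to 0.57. Scp2 was lower in 4 of 5, with values from -0.47 to 0.01, and Pex11a in 4 of 5, from -0.79 to 0.02. How many of all genes had 1 sign in all 5 cages was not computed. Cage 10 had 1 HF-fed pup, HF_HF mouse 1, whose array had the lowest median correlation. It alone set the 0.02 of Acox3, the -0.47 of Scp2 and the -0.79 of Pex11a. The 0.07 of Acaa1a and of Acox2, the 0.01 of Cat and the -0.25 of Pex3 rest on the same pup.

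Hacl1 differed between these cages. It was at -0.80 in cage 4 and -0.76 in cage 11, both of LF dams. In cages 10, 20 and 23 of HF dams it was at 0.42, -0.06 and -0.21, and the 0.42 rests on 1 HF-fed pup. These are descriptions of few mice, 1 to 3 per diet in a cage, and carry no test. With birth cage as a fixed block in the fit, 2 members passed in HF_HF against HF_LF (Abcd2 and Scp2) and 0 in LF_HF against LF_LF, where Hacl1 was at -0.78 ± 0.19 (adjusted p = 0.0979). The Abcd2 probe entered the test only through LF-fed mice, which favours its fall, and Scp2 was represented by its brightest probe alone. The share of all genes that passed this fit is not given here.

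**Figure D3:**
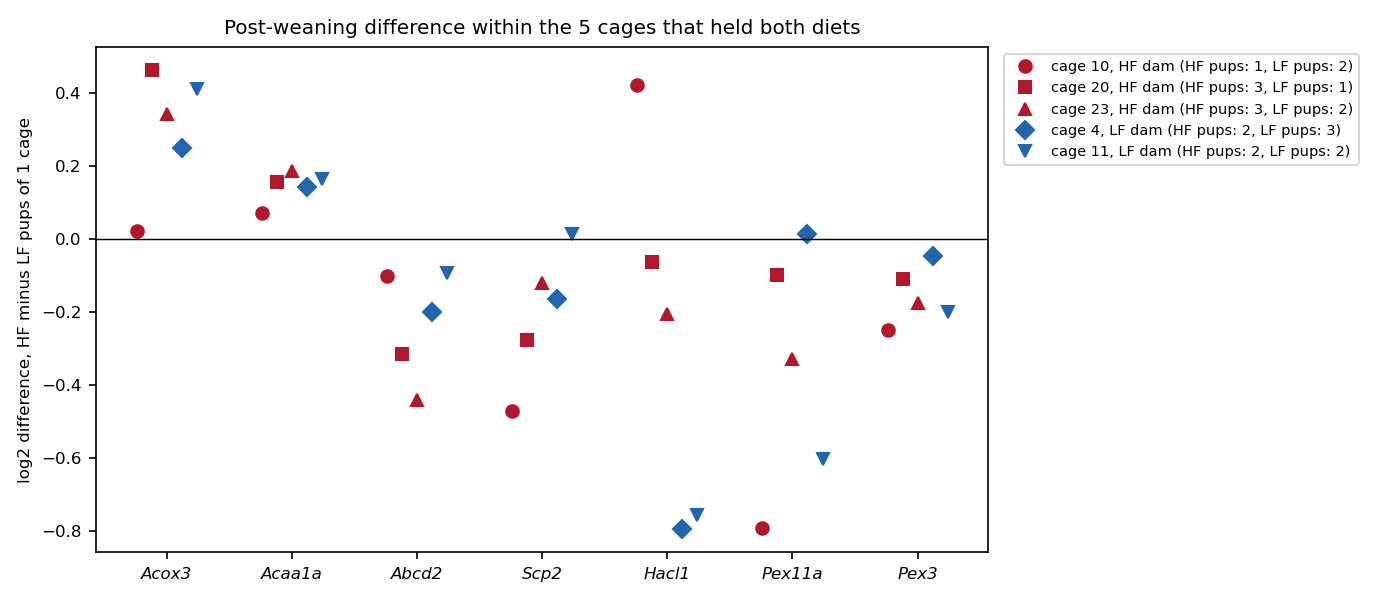
Difference on the log2 scale between HF-fed and LF-fed pups of the same birth cage, 1 point for each of the 5 cages that held both diets (red for HF dams, blue for LF dams), for 7 members. All points of Acox3 and Acaa1a lie above 0 and all points of Abcd2 and Pex3 below 0. The Abcd2 probe passed the filter only through LF-fed mice. Hacl1 reaches -0.80 in a cage of LF dams and 0.42 in cage 10 of HF dams, whose points rest on 1 HF-fed pup.

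The maternal diet was compared in pups fed HF and in pups fed LF after weaning. These comparisons share birth cages with each other, and each shares its groups with the post-weaning comparisons. No member passed in either. In HF_HF against LF_HF, 0 of 25 members passed, beside 0.293% of all genes, and 3 members had an unadjusted p under 0.05. In HF_LF against LF_LF, 0 of 25 passed, 0% of all genes passed, and 0 members had an unadjusted p under 0.05.

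In HF_HF against LF_HF the lowest adjusted p belonged to Hacl1. Its median was 336.6 in HF_HF mice, against 266.8 in LF_HF mice, and the log2 difference was 0.53 ± 0.14 (adjusted p = 0.129). It passed only when LF_HF mouse 1, the sole mouse of cage 14, was left out (0.62 ± 0.14, adjusted p = 0.0398). Pex11a had a mean of 2112 in HF_HF mice, against 1736 in LF_HF mice, a difference of 0.29 ± 0.13 (adjusted p = 0.376), and Ech1 one of 0.16 ± 0.07 (adjusted p = 0.445). The medians over the members were 0.02 for the 11 peroxins and 0.04 for the 14 lipid genes, beside -0.01 for all genes.

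In HF_LF against LF_LF the lowest adjusted p belonged to Pex2. Its lowest, median and highest intensity were 910.7, 979.5 and 1192.5 in HF_LF mice, against 999.2, 1083.5 and 1290.3 in LF_LF mice, and most of that range was shared. The log2 difference was -0.12 ± 0.07 (adjusted p = 0.791). All members lay between -0.12 and 0.20, the upper value being that of Ehhadh, whose spread between mice was the widest. The medians were 0.06 for the peroxins and 0.01 for the lipid genes, beside 0.00 for all genes.

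The interaction of both diets, fitted on all 4 groups, was passed by 0 of 25 members and by 0% of all genes. Only Hacl1 had an unadjusted p under 0.05 among the members. Estimates ranged from -0.16 to 0.59.

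The members also varied between mice of the same group. Ehhadh, widely used as a marker of PPARalpha activity, was set against the other 24 tested members after group means were removed (n = 36 mice, 100000 permutations within groups, two-sided, Benjamini-Hochberg over the 24). Pearson's r passed for 7 members: Cat (r = 0.63, permutation adjusted p = 0.00384), Acaa1b (0.52, 0.0145), Hacl1 (0.49, 0.0227), Pex14 (0.49, 0.0238), Pex11a (0.42, 0.0332), Pex26 (-0.48, 0.0238) and Acox3 (-0.46, 0.0238). Spearman's rho for them was 0.60, 0.42, 0.47, 0.44, 0.38, -0.45 and -0.48 in the same order, with permutation adjusted p values from 0.0115 to 0.0471 except for Pex11a (0.0688). These 7 are 29.2% of the 24, and an absolute r of at least 0.42, the smallest among them, was reached by 16.5% of the other 8536 tested genes, a difference that was not tested. Acox3, which rose on the HF diet in both comparisons, thus went against Ehhadh between mice, while Acaa1a, which rose in pups of HF dams, had r = -0.19 (permutation adjusted p = 0.493).

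Without the 2 mice farthest from the median of Ehhadh, HF_LF mouse 4 and HF_HF mouse 1, r was 0.58 for Cat, 0.57 for Hacl1, 0.38 for Acaa1b, 0.37 for Pex14, 0.35 for Pex11a, -0.39 for Pex26 and -0.53 for Acox3. Littermates are not independent, and over 17 means of cage and group no relation passed, with permutation adjusted p values of 0.218 or more. There r was 0.61 for Acaa1b and for Pex11a, 0.53 for Cat, 0.44 for Pex14 and -0.56 for Pex26, but only 0.26 for Hacl1 and -0.22 for Acox3. Hsd17b4, the other bifunctional enzyme, had r = 0.05 with Ehhadh over mice (permutation adjusted p = 0.872).

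**Figure D4:**
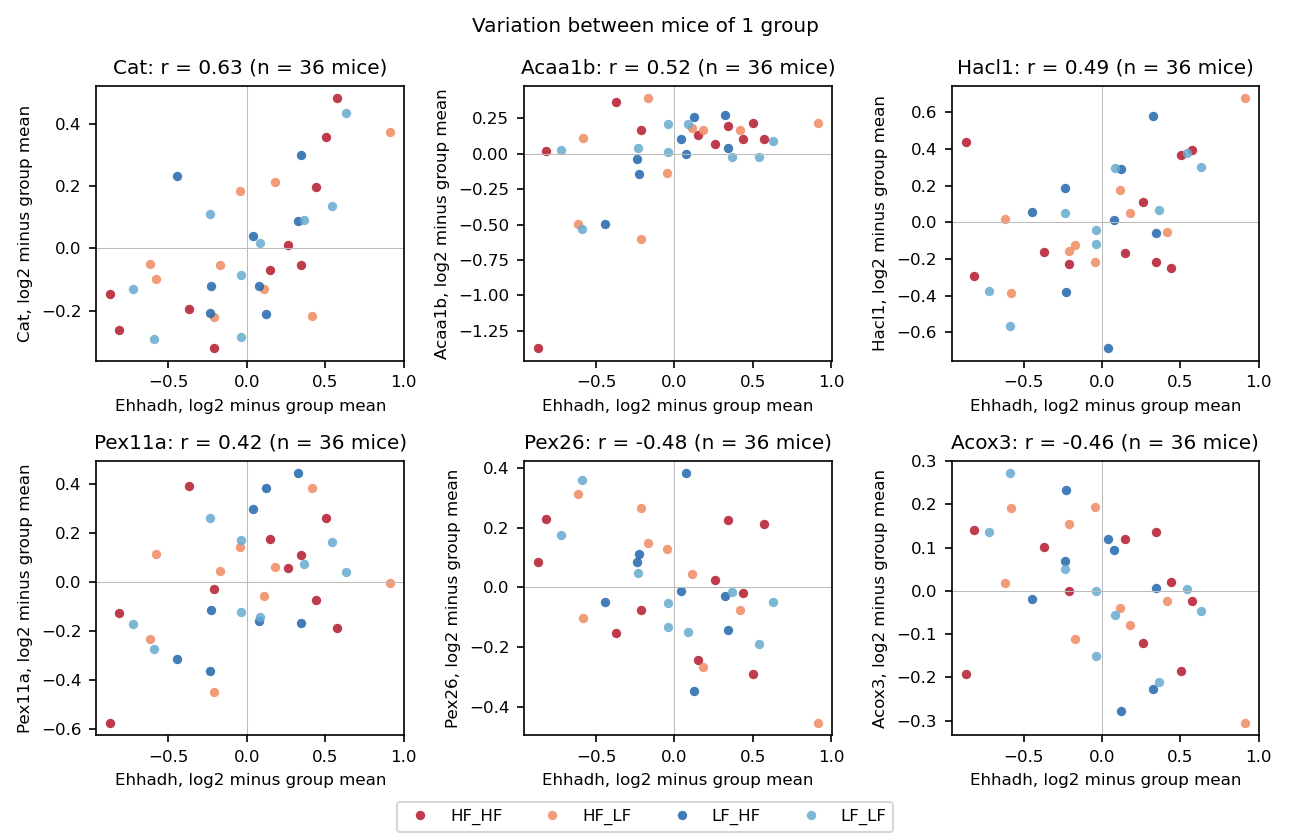
Log2 intensity of 6 members against that of Ehhadh, each minus its group mean, 1 point per mouse (n = 36), coloured by group. Cat rises with Ehhadh (r = 0.63) and Acox3 and Pex26 fall (r = -0.46 and -0.48), and in the Acaa1b panel HF_HF mouse 1 lies far below all others.

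Genes with a related role, listed by name, were read from the same fits. Over all 8537 tested genes, 11.8% passed in HF_HF against HF_LF and 3.41% in LF_HF against LF_LF. Of 12 tested genes for other peroxisomal membrane, protease and division proteins, 3 rose and 1 fell in HF_HF against HF_LF, and 2 rose in LF_HF against LF_LF. The membrane proteins Pxmp2, a pore, and Mpv17l rose in both: Pxmp2 by 0.56 ± 0.12 (adjusted p = 0.0032) and 0.38 ± 0.10 (adjusted p = 0.0388), Mpv17l by 0.52 ± 0.11 (adjusted p = 0.00445) and 0.46 ± 0.11 (adjusted p = 0.0261). In pups of HF dams Pex11g, a relative of Pex11a, rose by 0.33 ± 0.10 (adjusted p = 0.0395), and Mff, a receptor for the division dynamin, was at -0.32 ± 0.07 (adjusted p = 0.00328).

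Of 25 other tested peroxisomal enzymes, 1 rose and 5 fell in HF_HF against HF_LF, where 11.8% of all genes passed. In LF_HF against LF_LF, 1 rose and 1 fell, beside 3.41% of all genes. In HF_HF against HF_LF the acyl-CoA thioesterases Acot3 and Acot4 were at -1.19 ± 0.31 (adjusted p = 0.0158) and -0.51 ± 0.14 (adjusted p = 0.0162), Slc27a2, which activates very long-chain fatty acids, at 0.30 ± 0.06 (adjusted p = 0.00308) and urate oxidase (Uox) at -0.29 ± 0.05 (adjusted p = 0.000498). In LF_HF against LF_LF, Crat, the carnitine acetyltransferase, was at -0.54 ± 0.11 (adjusted p = 0.00921) and Ddo, which oxidises D-aspartate, at 0.30 ± 0.08 (adjusted p = 0.0421). The list as a whole had 13 of 25 genes above 0 and a median of 0.00 in HF_HF against HF_LF, and 11 of 25 above 0 and a median of -0.06 in LF_HF against LF_LF.

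Of 18 tested genes for PPARalpha and its targets, 0 rose and 3 fell in HF_HF against HF_LF, where 11.8% of all genes passed. In LF_HF against LF_LF, 1 rose and 2 fell, beside 3.41% of all genes. Acot1, a cytosolic thioesterase, fell in both, by 0.96 ± 0.30 (adjusted p = 0.0413) and by 1.06 ± 0.29 (adjusted p = 0.0449) on the log2 scale. The hormone gene Fgf21 (-0.73 ± 0.20, adjusted p = 0.0172) and the coactivator gene Ppargc1a (-0.43 ± 0.10, adjusted p = 0.00937) fell in pups of HF dams. In pups of LF dams Cyp4a12a, a fatty acid omega-hydroxylase, rose (0.51 ± 0.11, adjusted p = 0.00847) and the carnitine transporter gene Slc22a5 fell (-0.41 ± 0.09, adjusted p = 0.0113). Slc22a5 was also the gene of these lists that passed in a maternal comparison, at 0.38 ± 0.08 in HF_HF against LF_HF (adjusted p = 0.044). In that comparison 0.293% of all genes passed.

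The PPARalpha list had a median log2 difference of -0.11 in HF_HF against HF_LF and -0.13 in LF_HF against LF_LF, beside -0.01 and 0.00 for all genes. Of 15 tested genes of mitochondrial beta-oxidation, 2 fell in HF_HF against HF_LF, where 11.8% of all genes passed. They were Acadl (-0.29 ± 0.09, adjusted p = 0.0413) and Etfdh (-0.20 ± 0.06, adjusted p = 0.0413). In LF_HF against LF_LF 0 passed, beside 3.41% of all genes.

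Markers of other cells and zones moved with the post-weaning diet in part. Of 8 pericentral hepatocyte markers, 3 rose in HF_HF against HF_LF and 2 in LF_HF against LF_LF, with Cyp1a2 at 0.56 and 0.72 and Slc1a2 at 0.42 and 0.40. Over all genes, 11.8% and 3.41% passed in these comparisons. Of the 8 markers, 5 and 6 lay above 0 in the same order, and the rest did not. Their summed intensity ranged from 32765 to 45268 in HF_HF mice, against 31254 to 38119 in HF_LF mice, and from 33612 to 41274 in LF_HF mice, against 29748 to 37747 in LF_LF mice. Of 5 tested periportal markers 0 passed, but 4 lay above 0 in both comparisons, and their summed intensity had medians of 15638 in HF_HF mice, against 14289 in HF_LF mice, and 16554 in LF_HF mice, against 14328 in LF_LF mice. The sums of both zones were thus higher at the median on the HF diet. In HF_HF against HF_LF, 1 of 6 sinusoidal endothelial markers fell (Oit3, -0.41), and of 2 erythroid markers Hba-a1 fell (-0.48) and Alas2 rose (0.30). None of the tested markers of hepatocytes, Kupffer cells, stellate cells, cholangiocytes, lymphocytes, neutrophils or adipocytes passed in any comparison. Some lists were short, with 1 tested marker for adipocytes, 2 each for cholangiocytes and neutrophils and 3 for lymphocytes. Both neutrophil markers lay above 0, with a median of 0.593 in HF_HF against HF_LF and 0.535 in LF_HF against LF_LF. The part of these cells and zones in the members' differences was not tested.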

How the data were processed

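The authors hybridized liver RNA of each mouse to 1 Illumina MouseRef-8 v2.0 beadchip and processed the arrays with BeadStudio, per the submitters' processing notes (version not given in the sources used here). Of 40 mice that the study describes at this age, 36 were analysed here. The deposited intensity values were quantile-normalized by the authors on a linear scale (45.7 to 32949.1) and are not background-subtracted. Log2 was taken with no further normalization. Among 25697 probes, 23978 carried 1 gene symbol and 1719 carried none, with 8 symbols brought up to date through RefSeq accessions. Testing was limited to the 12289 probes (47.8%) whose median over all mice reached 71.5, the middle value of the table. A gene was represented by its probe with the highest mean. The number of mice and the dimness of some probes limit the precision.

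Groups from the labels were compared in pairs with limma 3.58.1 (R 4.3.3; lmFit, and eBayes with trend) without covariates, with Benjamini-Hochberg adjustment over the kept probes at 5%. Changes are log2 differences of intensity ± SE unless SD is named. Fits were also run on simulated data without a cage effect, which do not cover littermates that share a cage. Alternatives were birth cage as a random block (statmod 1.5.0), as a fixed block or averaged, no variance trend, no filter or a stricter one (147.9), subtraction of each array's 5th percentile, mean of probes, all 4 groups in 1 fit, and leaving out each mouse or cage. Members, gene lists and tests were chosen with earlier results of these data known. All members were named with their levels, with full values for those past the threshold and for the lowest adjusted p where none passed. Up to 4 genes past the threshold with the largest difference were named per other list and comparison. Differences of further members were added after they were seen. Mice are numbered by accession within a group, and permutations used numpy 2.4.6.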

Additional observations from a re-analysis of the deposited data

Results flagged for a closer look

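In 8 of 112 combinations of member and group, 1 mouse lay apart from the rest of its group by more than Dixon's 95% limit, where chance flags about 1 in 20. HF_HF mouse 1, from cage 10, was the lowest of 10 for Acaa1b (5159.6, the others 13552.8 to 17205.6), Pex6 (1408.7, the others 1708.5 to 1956.3) and Decr2 (253.5, the others 330.3 to 444.3). Decr2 also had 1 mouse apart in both groups of LF dams: LF_HF mouse 2 was lowest at 172.7 (the others 284.1 to 436.4), and LF_LF mouse 8 was highest at 788.9 (the others 271.1 to 375.4). LF_LF mouse 6 was lowest for Acaa1b (9846.4, the others 14040.6 to 16483.2), LF_HF mouse 5 for Ech1 (3909.5, the others 4871.4 to 5604.3), and HF_LF mouse 4 for Pex16 (472.5, the others 583.4 to 686.7). No interaction of both diets passed for a member.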

How the results depend on the processing

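The random block used 1 correlation within cages, shared by all 12289 kept probes after group means were removed. It was 0.00829 in LF_HF against LF_LF and 0.0504 in HF_HF against HF_LF. In the maternal comparisons it was 0.0795 (HF_LF against LF_LF) and 0.0769 (HF_HF against LF_HF). It does not give the correlation of littermates for a single member. With 1 mean per cage and group, 0 members passed in LF_HF against LF_LF and 1 in HF_HF against HF_LF (Abcd2, whose probe entered the test only through LF-fed mice), and 0 of the 7 relations of Ehhadh passed. With birth cage as a fixed block the counts were 0 and 2, the latter being Abcd2 again and the brightest probe of Scp2. Both alternatives use fewer values or degrees of freedom, and the cause of the lost calls was not tested. Leaving out 1 mouse or cage gave 0 to 6 members in LF_HF against LF_LF (0 without cage 9, 1 without cage 8 or cage 11, 5 without cage 4 or LF_LF mouse 6, 6 without LF_HF mouse 3), 2 to 5 in HF_HF against HF_LF (2 without cage 21 or cage 23), and 0 to 1 in HF_HF against LF_HF. The random block, no variance trend, no filter and background subtraction kept the 3 and 4 members called. The stricter filter dropped Abcd2 and, in LF_HF against LF_LF, added Pex11a and Pex26. No alternative turned the direction of a called member, and HF_LF against LF_LF and the interaction stayed at 0 in all alternatives run. No paired analysis was possible because the mouse numbers only follow accession order, if mice are paired by number; littermates were paired by the fixed block of birth cage. Dim probes and groups of 8 to 10 mice limit what could be resolved.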
